A study of Mus musculus with 26 samples.

Results

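The genes described here are 47 genes of the cell cycle, listed by symbol: 23 genes of DNA replication, called S-phase genes below, and 24 genes of G2 and mitosis. Of these, 46 have a row in the RNA table of 37450 gene IDs, 22 of the S-phase genes and all 24 of the G2 and mitosis genes. Gins2, a subunit of the GINS part of the replicative helicase, is not analysed here.

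Cultured mouse embryonic stem (ES) cells were differentiated into spinal motor neurons, and RNA depleted of ribosomal RNA was sequenced once on each of days 0, 4, 5 and 6. The day 0 library came from ES cells of the HBG3 line with no added factor. The day 4 library came from HBG3 cells, labelled motor neuron progenitors, that had received retinoic acid (1 uM) together with the Hedgehog pathway agonist SAG (0.25 uM) on day 2. The day 5 and day 6 libraries came from the iCre line, given the same factors on day 2 and then DAPT (5 uM), which inhibits gamma-secretase and so Notch signalling. DAPT is given for day 4 in the day 5 library and for days 4 and 5 in the day 6 library, and the labels call both postmitotic motor neurons. For all 4 libraries another field of the labels reads Ainv15. The change from HBG3 to iCre and the addition of DAPT both fall between the day 4 and day 5 libraries. Line, DAPT and day thus cannot be told apart at that step. With 1 library per day there are no replicates, no error can be given and no test was made.

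A dividing cell copies its DNA in S phase and separates the copies in mitosis. Replication starts where Cdc6 and its partners load the Mcm helicase onto origins, and cyclin E with its kinase and the E2F factors switch on the genes this needs. Mitosis is driven by Cdk1 with cyclins A and B and by the Aurora and Polo kinases, and the spindle checkpoint holds anaphase back until Cdc20 releases it. E2F factors act through short GC-rich sites, and many genes of G2 and mitosis carry CCAAT boxes and a cell cycle homology region (CHR) near their start. When a progenitor of the spinal cord becomes a motor neuron it leaves the cell cycle for good.

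Promoters of the genes with the largest falls are shown because they carry or lack these 3 kinds of site. For each class they are the pair with the largest fall (S-phase genes from day 4 to day 5, G2 and mitosis genes from day 5 to day 6) and, of the others, 1 gene with the most matches over the 300 bases described below: E2F cores for S-phase genes, CCAAT boxes and CHR elements together for G2 and mitosis genes. Mki67 tied on that count with Ccnb2, Cdk1 and Cdca8 and was taken for its larger fall, and genes with more than 1 promoter entry were passed over. Falls were ranked on log2(FPKM + 1), a scale described below. By share of FPKM kept the S-phase pair was the same, but the G2 and mitosis genes that kept least from day 5 to day 6 were Cenpf (4.78%) and Mki67 (6.52%). Each line gives the 250 bases before the start of the gene, 5′ to 3′ on the gene's strand, from RefSeq, build GRCm38.p6, and capitals mark every match. Both strands were searched. The E2F core was spelled TTCCCGC (as in Cdc6, on the other strand), TTGGCGC (as in Mki67), TTCGCGC (as in Mcm6, on the other strand) or, in a spelling that none of these 6 holds, TTGCCGC. The CCAAT box was spelled CCAAT, and the CHR element was spelled TTTGAA (as in Mki67) or in its other form TTCGAA (as in Top2a).
Tk1, thymidine kinase (chr11:117826015-117826264, minus strand): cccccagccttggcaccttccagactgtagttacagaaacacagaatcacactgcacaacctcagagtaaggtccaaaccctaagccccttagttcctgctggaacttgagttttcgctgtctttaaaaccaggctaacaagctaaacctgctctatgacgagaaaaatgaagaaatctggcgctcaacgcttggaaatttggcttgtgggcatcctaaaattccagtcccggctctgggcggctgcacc
Cdc6, helicase loader (chr11:98907901-98908150, plus strand): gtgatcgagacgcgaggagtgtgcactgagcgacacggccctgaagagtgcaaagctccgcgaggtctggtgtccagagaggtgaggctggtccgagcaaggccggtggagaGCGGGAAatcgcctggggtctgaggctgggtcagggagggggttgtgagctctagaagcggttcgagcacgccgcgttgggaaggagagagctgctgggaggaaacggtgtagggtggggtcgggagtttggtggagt
Mcm6, helicase subunit (chr1:128359706-128359955, minus strand): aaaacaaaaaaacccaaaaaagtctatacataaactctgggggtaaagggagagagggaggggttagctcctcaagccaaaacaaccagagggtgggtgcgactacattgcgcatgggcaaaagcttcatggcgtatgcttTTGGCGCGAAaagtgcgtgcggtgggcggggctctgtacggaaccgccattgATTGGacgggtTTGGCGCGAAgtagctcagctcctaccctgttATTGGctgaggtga
Top2a, topoisomerase II alpha (chr11:99024190-99024439, minus strand): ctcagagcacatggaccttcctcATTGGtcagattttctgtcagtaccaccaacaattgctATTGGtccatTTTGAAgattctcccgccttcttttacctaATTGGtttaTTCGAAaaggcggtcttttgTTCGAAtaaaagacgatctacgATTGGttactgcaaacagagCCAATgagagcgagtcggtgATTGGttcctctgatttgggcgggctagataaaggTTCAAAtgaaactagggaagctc
Ccnb1, cyclin B1 (chr13:100786487-100786736, minus strand): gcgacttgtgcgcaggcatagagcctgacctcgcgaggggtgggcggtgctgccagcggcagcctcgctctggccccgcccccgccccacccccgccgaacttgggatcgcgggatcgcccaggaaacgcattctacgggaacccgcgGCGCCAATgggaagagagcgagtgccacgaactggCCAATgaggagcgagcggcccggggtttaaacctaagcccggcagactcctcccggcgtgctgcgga
Mki67, proliferation marker Ki-67 (chr7:135716380-135716629, minus strand): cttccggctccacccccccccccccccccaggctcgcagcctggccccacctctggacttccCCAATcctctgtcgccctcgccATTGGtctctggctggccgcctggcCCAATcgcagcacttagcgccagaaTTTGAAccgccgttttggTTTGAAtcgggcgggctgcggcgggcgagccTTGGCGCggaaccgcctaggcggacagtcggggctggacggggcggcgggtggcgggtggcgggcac
Tk1 had no match in these bases, and Cdc6 had 1 E2F core. Mcm6 had 4 E2F cores, which lie as 2 overlapping pairs, and 2 CCAAT boxes. Top2a had 6 CCAAT boxes and 4 CHR elements, and no E2F core. Ccnb1 had 2 CCAAT boxes, 1 of them overlapping its E2F core, and Mki67 had 3 CCAAT boxes, 2 CHR elements and 1 E2F core.

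Of the 46 genes, 38 had an entry in the RefSeq promoter table, 18 S-phase genes and 20 of G2 and mitosis. Over the table's whole window of 300 bases, which adds 50 bases after the start, an E2F core was found in 11 of the 18 S-phase genes (61.1%) and in 4 of the 20 G2 and mitosis genes (20%). Among all 27025 symbols of that table the share was 10.9%. A CHR element was found in 16 of 20 G2 and mitosis genes (80%) and in 3 of 18 S-phase genes (16.7%), and in 21.7% of all symbols. The CCAAT box was found in 18 of 20 G2 and mitosis genes (90%) and in 11 of 18 S-phase genes, against 41.1% of all symbols. All 16 G2 and mitosis promoters with a CHR element also held a CCAAT box, a combination found in 9.65% of all symbols. In the 250 bases before the start alone, a CHR element was found in 9 of 20 G2 and mitosis genes (45%) and 3 of 18 S-phase genes (16.7%), with 19.6% of all symbols. An E2F core was found there in 8 of 18 S-phase genes (44.4%) and 4 of 20 G2 and mitosis genes (20%), with 9.01% of all symbols. CCAAT box counts were the same in both windows (37.5% of all symbols in the shorter one), so the size of the CHR difference between the classes depended on the window. These are matches of letters, and binding to them was not examined.

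The libraries were first read for their cell types. The 8 ES cell genes summed to 762 FPKM (fragments per kilobase of gene, scaled to library size) on day 0 and to 1.25 FPKM or less on the other days. The 10 progenitor genes had their highest sum on day 4 (538 FPKM, against 167, 207 and 138 FPKM on days 0, 5 and 6). The 10 motor neuron and neuron genes summed to 31.2, 29.8, 644 and 865 FPKM on days 0, 4, 5 and 6. Most of the day 0 sum was Stmn2, at 28.03 FPKM on day 0 and 3.59 FPKM on day 4. Glial genes (9) summed to between 6.33 and 13.5 FPKM in all 4 libraries, of which the myelin gene Mbp made 11.5 FPKM on day 5, with Gfap, Aqp4 and S100b at or below 0.0204 FPKM. Mesoderm and blood genes (8) summed to 15.5 FPKM on day 0, of which Pecam1 made 13.9 FPKM. From day 4 on they summed to 1.24 FPKM or less, with Myod1 listed at 0 throughout. Endoderm and epithelial genes (7) summed to 127 FPKM on day 0, of which Epcam made 91.0 FPKM, and to between 4.29 and 7.95 FPKM from day 4 on. ES cell genes were thus highest on day 0, progenitor genes on day 4, and motor neuron genes on days 5 and 6, as the labels have it. The word postmitotic was not borne out in the same way on day 5. That library still held Olig2 at 17.3 FPKM and Sox2 at 13.02 FPKM, and all 46 cell cycle genes at 1 FPKM or more. Whether these RNAs came from remaining progenitors was not tested. Read numbers are not given. The lowest values give a rough reading of what 1 read was worth, from their most common ratio. It was 1.02 for day 4 over day 5 (held by 10.2% of 433 low genes) and 1.32 for day 5 over day 6 (11.6% of 499). For day 0 over day 4 it was 0.507, held by 3.62% of 414 low genes. Each ratio was held by a small part of the low genes.

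From ES cells to progenitors the cell cycle genes stayed near their level. The median S-phase gene was at 31.98 FPKM in ES cells and 31.8 in progenitors, and the median G2 and mitosis gene at 29.3 and 31.6 FPKM. A gene was called higher or lower where log2(FPKM + 1), a scale that understates changes of low genes, differed by at least 2-fold, leaving out genes below 1 FPKM in both libraries. By that rule 1 S-phase gene and 1 G2 and mitosis gene were higher on day 4 and none was lower, where 19.3% of the 11482 genes compared were higher and 11.9% lower. Rfc3, a subunit of the clamp loader, went from 14.8 to 42.3 FPKM, a log2 difference of 1.45. Mki67 went from 14.3 to 39.8 FPKM, a difference of 1.41. The median log2 difference was 0.13 over the S-phase genes and 0.16 over the G2 and mitosis genes, with 0.23 over all genes. After rescaling to a common median ratio both class medians fell below 0, to -0.10 and -0.079, so their direction is not settled.

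Single genes moved in opposite directions over this step. Cyclin E1 (Ccne1), the partner of Cdk2 at the G1 to S transition, was at 41.1 FPKM in ES cells and 20.3 in progenitors, while its paralog Ccne2 was at 7.89 and 16.3 FPKM. Ccne1 was thus the higher of the pair in both libraries, by a smaller margin on day 4. Pcna, the sliding clamp of the replication fork, was at 100.1 and 196.9 FPKM and was the highest S-phase gene in all but the day 6 library. Top2a, which untangles replicated chromosomes, was at 244 and 149 FPKM and was the highest of all 46 genes on days 0 and 5. Ect2, the activator of the cleavage furrow, was at 43.4 and 22.8 FPKM. None of these differences reached 2-fold on the log2(FPKM + 1) scale.

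**Figure D1:**
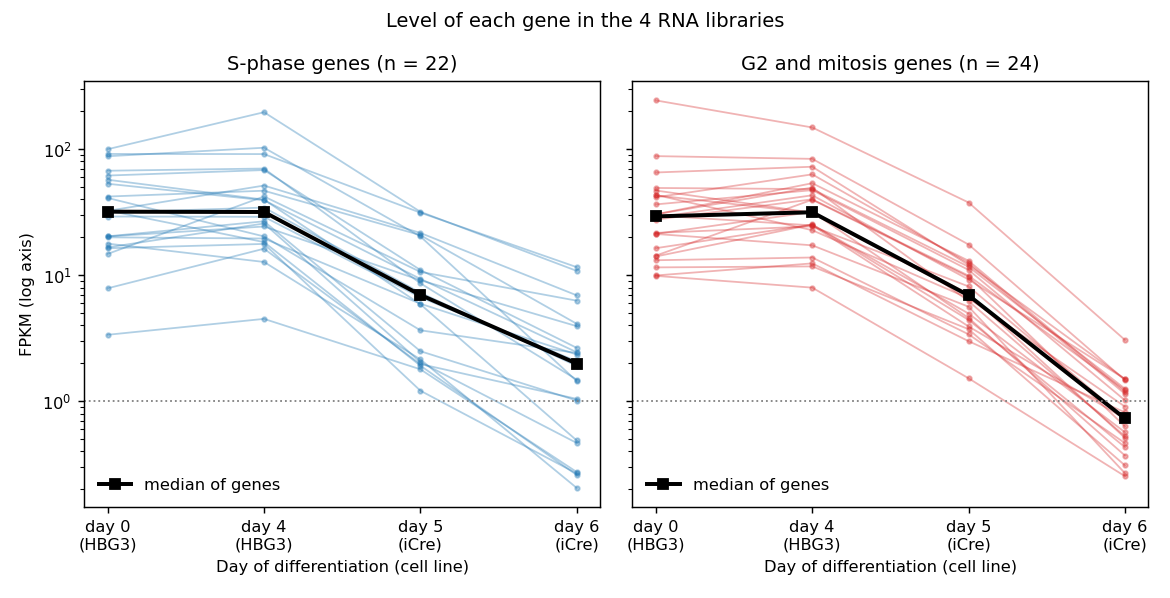
FPKM (log axis) of each of the 22 S-phase genes (left) and 24 G2 and mitosis genes (right) in the libraries of days 0, 4, 5 and 6, with 1 thin line per gene and the median of the genes in black; the dotted line marks 1 FPKM. The medians of the classes lie together on days 4 and 5 (near 32 and 7 FPKM) and part on day 6, at 1.99 FPKM for S-phase genes and 0.731 FPKM for G2 and mitosis genes.

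Both classes were lower in the day 5 library. From day 4 to day 5, 21 of 22 S-phase genes and 24 of 24 G2 and mitosis genes were lower by 2-fold or more, where 14.7% of the 11339 genes compared were lower. By 4-fold or more, 13 S-phase genes and 11 G2 and mitosis genes were lower, where 2.65% of all genes were. The order of these counts rests on the added 1 FPKM. With nothing added, the G2 and mitosis genes had the larger count at 4-fold, as given under the processing below. The median log2 difference was -2.16 for S-phase genes, -1.98 for G2 and mitosis genes and -0.11 for all genes. By day 5 the median S-phase gene kept 18.9% of its day 4 FPKM and the median G2 and mitosis gene 23.0%. The classes overlapped, and the S-phase genes were the more scattered: they kept between 6.84% (Cdc6) and 44.4% (Mcm2), the G2 and mitosis genes between 12.5% (Birc5) and 33.3% (Ccnb2). In bulk RNA fewer dividing cells and less of each RNA per cell cannot be told apart. Over the same step 7 of 10 progenitor genes were lower (median -2.01) and 10 of 10 motor neuron genes higher (median 3.85), and their part in the difference was not tested.

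Of the S-phase genes, 6 kept less of their day 4 level on day 5 (6.84% to 12.3%) than any G2 and mitosis gene: Cdc6, Tk1, Pold1, Mcm10, Ccne2 and Mcm5. Cdc6 (ENSMUSG00000017499), whose promoter held a single E2F core, was at 16.4, 17.7, 1.21 and 0.267 FPKM on days 0, 4, 5 and 6. Tk1 (ENSMUSG00000025574), the salvage enzyme that makes thymidine monophosphate, was at 16.6, 25.8, 2.05 and 0.467 FPKM. Both were high in the libraries of days 0 and 4 and low in those of days 5 and 6, and their day 4 to day 5 differences, -3.08 and -3.14 on the log2 scale, were the largest of the 46. Pold1, the catalytic subunit of polymerase delta, was at 20.4, 26.8, 2.50 and 1.01 FPKM. Mcm10, which helps to start the helicase, was at 32.7, 18.3, 1.92 and 0.260 FPKM. Both were lower on day 5 than on days 0 and 4, and lowest on day 6.

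Cyclin E genes made most of their fall by day 5. On days 5 and 6 Ccne1 was at 3.66 and 2.42 FPKM and Ccne2 at 1.98 and 1.05 FPKM. From day 5 to day 6 their log2 differences were -0.45 and -0.54, and neither was called lower. E2f1, the E2F factor of the list and its lowest gene on days 0 and 4, ran otherwise. It was at 3.37, 4.51, 1.79 and 0.275 FPKM, and its day 4 to day 5 difference of -0.98 was the single one of the 46 short of 2-fold, by a margin that the added 1 FPKM decides (-1.33 without it).

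Subunits of the Mcm2 to Mcm7 ring, which are loaded as 1 hexamer, did not keep equal shares. Mcm2 was at 42.2, 46.9, 20.8 and 4.12 FPKM, and Mcm7 at 91.8, 91.6, 31.4 and 11.6 FPKM. Mcm3 was at 57.3, 39.9, 5.89 and 0.489 FPKM. Mcm5 was at 67.6, 70.3, 8.64 and 1.49 FPKM. On day 5 these 4 subunits kept 44.4%, 34.3%, 14.8% and 12.3% of their day 4 levels, with Mcm4 (23.8%) and Mcm6 (16.1%) between them. On day 6 Mcm7 was the highest of all 46 genes and Mcm3 the lowest of the ring. Gins1, of the GINS part of the helicase, was at 19.6, 5.95 and 2.35 FPKM on days 4, 5 and 6.

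Genes of the fork and of nucleotide supply showed the same spread. The clamp Pcna was at 31.9 FPKM on day 5 and 10.8 on day 6. Of the clamp loader, Rfc3 was at 10.6 and 6.29 FPKM and Rfc4 at 9.14 and 3.95 FPKM on these days. Rfc4 kept 16.2% and Rfc3 14.9% of the day 4 level on day 6, the largest shares of the 46. At the other end Pole, the catalytic subunit of the leading strand polymerase epsilon, was at 12.8, 2.15 and 0.205 FPKM on days 4, 5 and 6, the lowest value of any member. The subunits of ribonucleotide reductase, which makes deoxynucleotides, also parted. Rrm1, the large subunit, was at 51.5, 21.7 and 6.93 FPKM on days 4, 5 and 6. Rrm2, the small subunit whose protein is known to be destroyed after S phase, was at 103, 20.3 and 1.45 FPKM. Rrm1 thus kept 13.5% of its day 4 level on day 6 and Rrm2 1.41%. Prim1, of primase, and Tyms, thymidylate synthase, kept 7.14% and 5.54%.

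The G2 and mitosis genes had a narrower range by day 5. Lowest were genes of the chromosomal passenger complex and its fellow kinases, where the 6 genes kept a median of 16.6%. Birc5, the passenger subunit survivin, was at 30.5, 49.7, 6.23 and 0.528 FPKM on days 0, 4, 5 and 6. Aurkb, its kinase, was at 21.4, 31.8, 4.59 and 0.371 FPKM, and Aurka, the Aurora kinase of the spindle poles, at 29.9, 24.9, 3.93 and 0.728 FPKM. All 3 were high on days 0 and 4 and below 1 FPKM on day 6. Incenp, the scaffold of the complex, was at 12.4, 3.00 and 0.817 FPKM on days 4, 5 and 6, and kept the largest share of the class on day 6 (6.57% of day 4). Plk1, the Polo kinase, and Cdca8, the passenger subunit borealin, kept 1.71% and 2.25%.

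The 3 G2 and mitosis genes that kept the largest shares on day 5 kept little of them on day 6. Cenpf, a protein of the outer kinetochore, was at 21.3, 17.3, 5.63 and 0.269 FPKM on days 0, 4, 5 and 6. It kept 32.6% of its day 4 level on day 5, and 4.78% of its day 5 level on day 6, the smallest share of any member at that step. Cenpe, the kinetochore motor, was at 11.8, 3.74 and 0.310 FPKM on days 4, 5 and 6. Ccnb2, cyclin B2, was at 24.5, 8.16 and 0.735 FPKM on these days. Each of these 3 genes kept over 30% at the first step and under 10% at the next.

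From day 5 to day 6 the classes parted. All 24 G2 and mitosis genes and 17 of 22 S-phase genes were lower by 2-fold or more, where 6.19% of the 11164 genes compared were lower. The median log2 difference was -2.27 for G2 and mitosis genes, -1.34 for S-phase genes and -0.07 for all genes. By 4-fold or more, 16 of 24 G2 and mitosis genes and 3 of 22 S-phase genes (Rrm2, Mcm3 and Mcm2) were lower, where 1.05% of all genes were. That S-phase count rests on the added 1 FPKM: on FPKM with nothing added, 10 of 22 S-phase genes and 23 of 24 G2 and mitosis genes were lower by 4-fold or more, against 3.51% of all genes. The median G2 and mitosis gene kept 9.51% of its day 5 FPKM and the median S-phase gene 26.2%. Of the 24 G2 and mitosis genes, 23 kept less than the S-phase median, Incenp (27.2%) being the exception, while 10 of the 22 S-phase genes kept more than any G2 and mitosis gene. Both libraries of this step came from iCre cells. It shares the day 5 library with the step before, so the values of the steps are not independent.

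**Figure D2:**
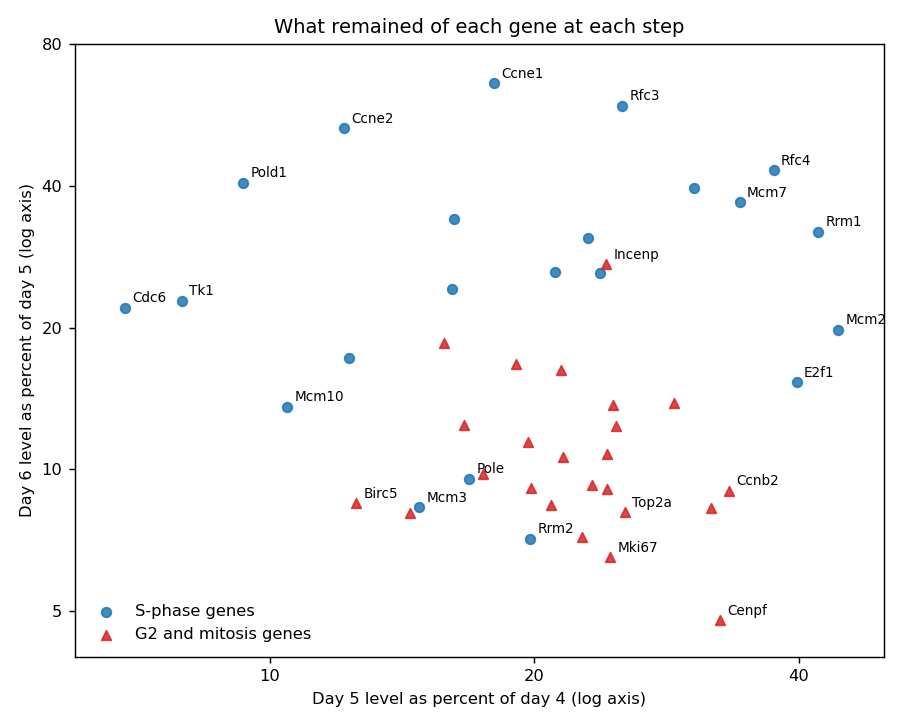
Level on day 5 as percent of day 4 (horizontal, log axis) against level on day 6 as percent of day 5 (vertical, log axis), from FPKM with nothing added; blue circles are the 22 S-phase genes and red triangles the 24 G2 and mitosis genes. The red points form a compact cloud, between 12.5% and 33.3% across and, but for Incenp, below 20% up, while the blue points reach from 6.84% to 44.4% across and up to 66.1%.

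On the log2(FPKM + 1) scale the largest falls among G2 and mitosis genes at this step were those of Top2a, Ccnb1 and Mki67. The S-phase gene Rrm2 lay between the first and the next, at -3.12. Top2a (ENSMUSG00000020914), with its 6 CCAAT boxes and 4 CHR elements, was at 149, 37.8 and 3.07 FPKM on days 4, 5 and 6. Ccnb1 (ENSMUSG00000041431), the main cyclin of mitotic entry, was at 84.0, 17.5 and 1.47 FPKM, and Mki67 (ENSMUSG00000031004) at 39.8, 9.72 and 0.633 FPKM. Their day 5 to day 6 log2 differences were -3.25, -2.91 and -2.71, and each gene was lowest on day 6. Ccna2, the cyclin of S phase and G2, was at 63.2, 12.5 and 1.15 FPKM on days 4, 5 and 6, and Cdk1, the kinase both cyclins bind, at 72.7, 12.1 and 1.503 FPKM. Cenpa, the histone H3 variant of centromeres, was at 53.8, 13.03 and 1.19 FPKM.

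Checkpoint genes were also lowest on day 6. On the log2(FPKM + 1) scale, used here for the share of the fall made by day 5, the step at which they lost most differed. With nothing added to FPKM each of them lost more from day 5 to day 6. Their shares by day 5 then ran from 36.1% (Bub1b) to 48.1% (Espl1). Bub1b, the checkpoint kinase homolog BubR1, was at 31.5, 7.13 and 0.513 FPKM on days 4, 5 and 6. Cdc20, the activator of the anaphase-promoting complex, was at 48.3, 11.7 and 1.26 FPKM. Mad2l1, which holds Cdc20 in check, was at 43.1, 9.26 and 1.503 FPKM. Espl1, separase, was at 7.98, 1.52 and 0.255 FPKM. With 1 FPKM added its log2 difference from day 5 to day 6, -1.01, was the smallest of the class. It made 64.5% of its fall by day 5, the largest share of the class. Neither held with nothing added, where Espl1 fell 5.98-fold from day 5 to day 6, against 5.40-fold for Aurka and 3.67-fold for Incenp. Its share was then 48.1%, below Aurka (52.3%) and Incenp (52.2%). Ttk, the kinase Mps1, was at 13.8, 3.40 and 0.466 FPKM, and made 52.5% of its fall by day 5, against 45.2% for Bub1b and 44.0% for Cdc20. Bub1, a kinase of the checkpoint, kept 2.29% of its day 4 level on day 6. Of the spindle and cytokinesis genes, Prc1, which bundles microtubules of the central spindle, was at 47.4, 11.0 and 1.02 FPKM. Tpx2, the activator of Aurka, and Ect2 were at 1.23 and 0.908 FPKM on day 6.

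Over the whole course from day 4 to day 6 all 46 genes were lower by 4-fold or more, where 6.23% of the 11697 genes compared were lower by 4-fold and 21.9% by 2-fold or more. The median log2 difference was -3.53 for S-phase genes, -4.22 for G2 and mitosis genes and -0.18 for all genes. The median S-phase gene kept 5.82% of its day 4 FPKM on day 6, and the median G2 and mitosis gene 2.23%. On day 5 every member was still at 1 FPKM or more, in a library labelled postmitotic. On day 6 this held for 16 of 22 S-phase genes and 9 of 24 G2 and mitosis genes, and no member was listed at 0 in any library.

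A ratio of the classes within a library does not depend on how libraries are scaled to each other. Summed FPKM of the G2 and mitosis genes over that of the S-phase genes was 1.11 on day 0, 0.971 on day 4, 0.984 on day 5 and 0.335 on day 6. The ratio of the median genes was 0.918, 0.995, 0.993 and 0.367 on these days. The balance was thus nearly the same on days 4 and 5, while both sums were lower on day 5 (1000 to 218 FPKM for S-phase genes and 972 to 215 for G2 and mitosis genes), and it shifted to S-phase genes on day 6 (64.6 against 21.6 FPKM).

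**Figure D3:**
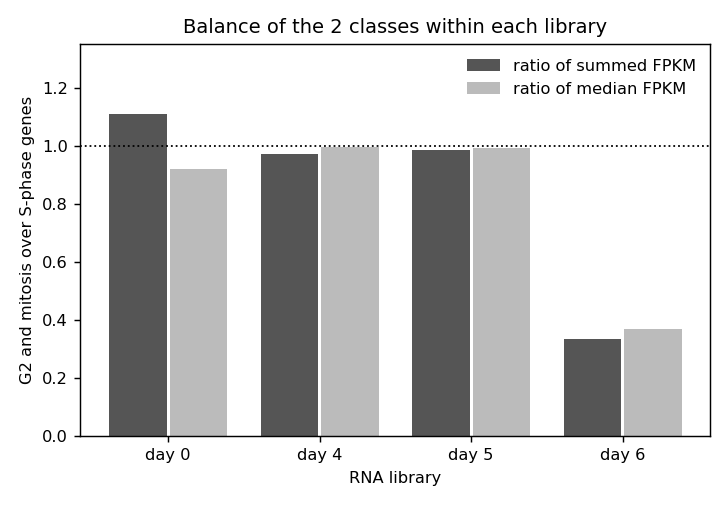
Ratio of G2 and mitosis genes to S-phase genes in each of the 4 RNA libraries, as summed FPKM (dark bars) and as FPKM of the median gene (light bars); the dotted line marks equal levels. The bars lie between 0.918 and 1.11 on days 0, 4 and 5 and at 0.335 and 0.367 on day 6.

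To ask which class fell first, the fall in log2(FPKM + 1) by day 5 was taken as a share of the fall from day 4 to day 6. The median share was 59.7% for S-phase genes (35.2% for Mcm2 to 83.1% for Ccne1) and 45.6% for G2 and mitosis genes (37.5% for Top2a to 64.5% for Espl1). Of the 24 G2 and mitosis genes, 21 lay below the S-phase median, and 3 of 22 S-phase genes lay below the G2 and mitosis median. By this measure the S-phase genes had made more of their fall by day 5, when the median genes of the classes were at 6.99 and 6.94 FPKM. With nothing added to FPKM the medians were 54.1% and 40.2%, and all 24 G2 and mitosis genes lay below the S-phase median. On linear FPKM the gap of 14.1 percentage points narrowed to 5.93, since there the day 6 levels of both classes are close to 0. No library lies between days 4 and 5, so which class turned first within that day was not measured.

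Roles within a class also differed. The cyclin E genes had made 83.1% (Ccne1) and 82.4% (Ccne2) of their fall by day 5, against 46.4% for E2f1. Fork genes had a median of 62.1% and origin and helicase genes 59.6% (59.2% and 53.1% with nothing added to FPKM). Nucleotide supply spanned 42.2% (Rrm2) to 74.8% (Tk1). On the other side the kinases and passenger genes had a median of 55.7% and checkpoint genes 49.8%. These medians rest on the added 1 FPKM: with nothing added they were 44.6% and 41.0%. Spindle and cytokinesis genes were at 45.4%, cyclins and Cdk1 at 44.4%, and centromere genes at 42.3%. With nothing added these too were lower, at 38.6%, 39.5% and 31.5%. Mki67 and Top2a, the widely used markers of dividing cells, were at 41.5% and 37.5%, so they came among the latest of the 46. With 1 FPKM added, the 3 S-phase genes below the G2 and mitosis median were Mcm2, Rrm2 and Rrm1. With nothing added that median was 40.2%, and E2f1 (32.9%) took the place of Rrm1 (43.2%) among the 3. E2f1 then had the smallest share of the S-phase genes.

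**Figure D4:**
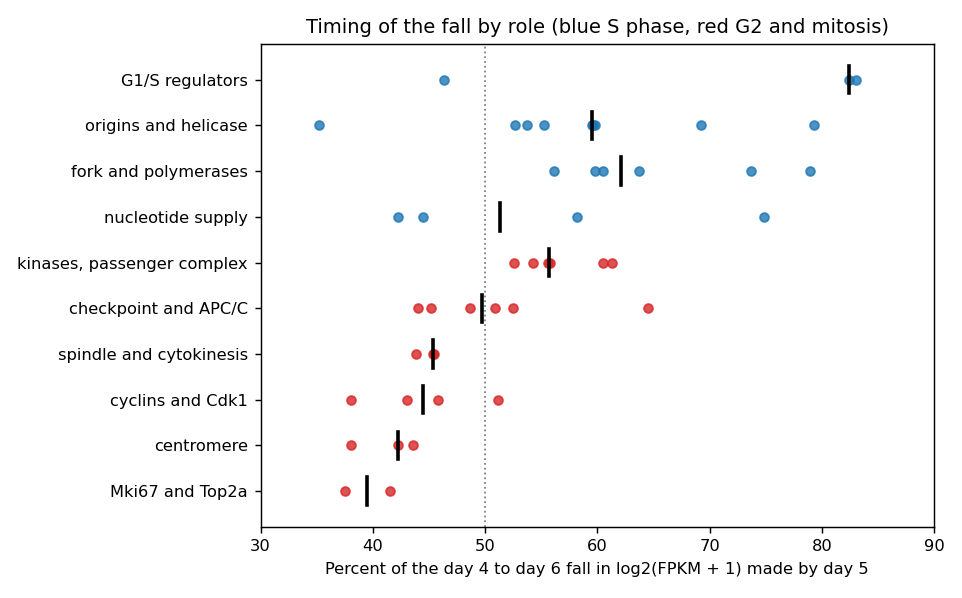
Percent of the day 4 to day 6 fall in log2(FPKM + 1) that had been made by day 5, with 1 point per gene, by role; blue roles belong to S phase, red roles to G2 and mitosis, and the black bar is the median of each role. Medians run from 82.4% for the G1/S regulators to 39.5% for Mki67 and Top2a, and single genes of the classes overlap. With nothing added to FPKM (not drawn) they run from 76.8% for the G1/S regulators to 31.5% for centromere genes.

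Other genes of both phases were read from lists that hold none of the 46. Of 45 other S-phase genes, 40 were lower from day 4 to day 5 (median -1.90) and 11 of the 40 that could be compared from day 5 to day 6 (median -0.71). Of 50 other G2 and mitosis genes, 45 were lower at the first step (median -1.79) and 44 of 49 at the next (median -1.60). These are counts at 2-fold or more, by which 14.7% of all genes were lower at the first step and 6.19% at the next. Genes that could not be compared were below 1 FPKM on both day 5 and day 6. The other S-phase genes that were 2-fold lower from day 4 to day 6 (42) had made a median of 70.9% of that fall by day 5, and the other G2 and mitosis genes (49) 50.9%. The order of the classes was the same as among the 46. Asf1b, a histone chaperone, and Dut, which removes dUTP, had the largest S-phase falls by day 5 (-2.73 and -2.70). Ube2c, the ubiquitin carrier of the anaphase-promoting complex, and the transcription factor Mybl2 had those of G2 and mitosis (-3.18 and -2.73). From day 5 to day 6 the largest were Uhrf1, which reads DNA methylation at forks (-2.80), and the helicase factor Cdc45 (-1.51) for S phase, and Pttg1, the separase inhibitor securin (-2.99), and the condensin subunit Ncapg (-2.59) for G2 and mitosis.

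A few of these other genes were not lower by 2-fold on day 6. Orc4, of the origin recognition complex, was at 39.3, 24.9, 38.4 and 31.6 FPKM on days 0, 4, 5 and 6, and Orc3 at 35.7, 28.6, 28.2 and 23.9 FPKM. Ckap5, a microtubule polymerase, was at 31.8, 41.1, 41.0 and 44.1 FPKM. These 3 genes had similar levels in all 4 libraries. E2f2, an activating E2F factor, was low throughout, at 1.03, 3.17, 1.51 and 1.99 FPKM. Of 12 reference genes, 3 were lower and 1 was higher from day 4 to day 5 (14.7% and 11.5% of all genes). None was called from day 5 to day 6 (6.19% of all genes lower and 6.57% higher). From day 4 to day 6, 4 of the 12 were lower (21.9% of all genes), among them Rplp0, which kept 19.7% of its day 4 level.

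**Figure D5:**
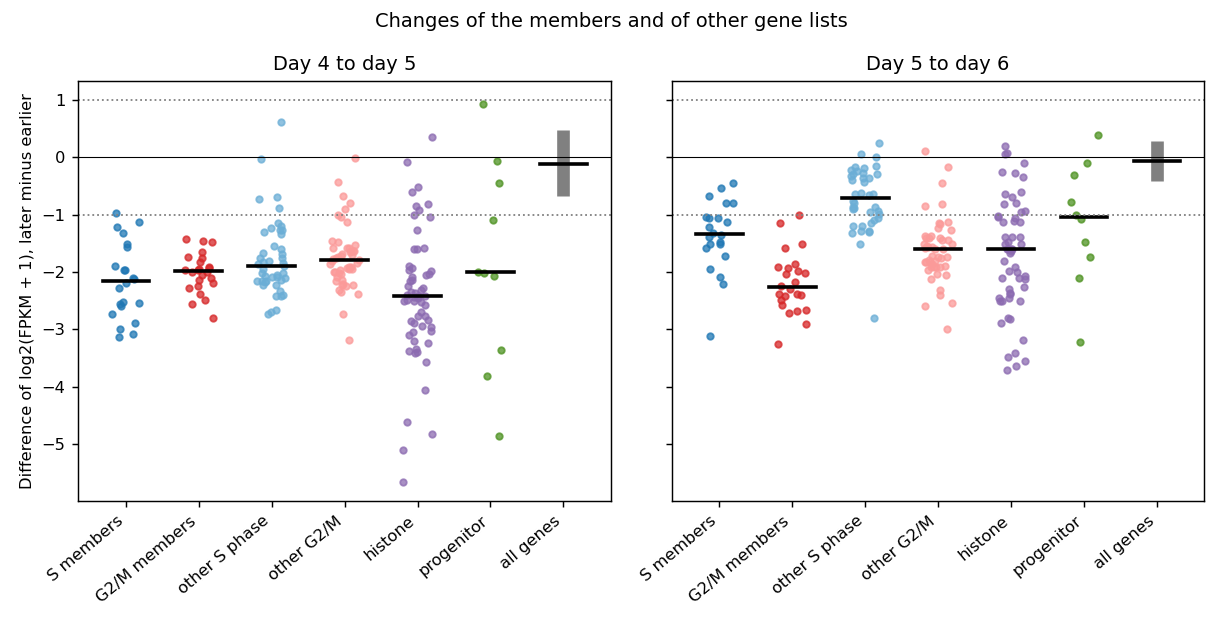
Difference of log2(FPKM + 1) from day 4 to day 5 (left) and from day 5 to day 6 (right), with 1 point per gene for the 22 S-phase genes, the 24 G2 and mitosis genes and the other lists, black bars at the medians and, for all genes compared, a grey bar from the lower to the upper quartile; dotted lines mark 2-fold. On the left the medians of the S-phase and the G2 and mitosis genes lie at -2.16 and -1.98, and on the right at -1.34 and -2.27, with all genes at -0.11 and -0.07.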

How the data were processed

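The authors deposited FPKM for ribosome-depleted RNA of 4 libraries, 1 per day, in a table of 37450 gene IDs. STAR, MACS, Bowtie 0.12.7, HOMER 4.7.2 and the mm9 build stand in the submitters' processing notes with no role, and the program and annotation behind the FPKM are not given in the sources used here, nor is how reads of pseudogene copies were counted. Rows were found by symbol, or by gene ID for older names. Differences of log2(FPKM + 1) were taken leaving out genes below 1 FPKM in both libraries and called at 2-fold, without a test. Shares kept were computed from FPKM with nothing added. The computation was tested on simulated data. Promoters came from a RefSeq table of 32851 entries (GRCm38.p6), a build other than that of the files, so they were joined by symbol alone. Python 3.11.15, numpy 2.4.6, pandas 2.3.3 and matplotlib 3.10.9 were used. The members and lists were chosen with earlier results of these data known. Every member could be named. Of the other lists, the pair with the largest fall at each step and, where 5 or fewer, those not 2-fold lower from day 4 to day 6 were named. Binding, acetylation and open chromatin files were not used here. Alternatives changed the added FPKM, the filter, the fold and the scaling between libraries.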

Additional observations from a re-analysis of the deposited data

How the results depend on the processing

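The falls after day 4 kept their direction in both classes under every alternative run. From day 0 to day 4 the class medians changed sign when libraries were rescaled, to -0.10 (S-phase) and -0.079 (G2 and mitosis) with a common median ratio and to -0.026 and -0.0018 with a common 75th percentile. At that step the median ratio gave 2 lower S-phase genes and 1 lower G2 and mitosis gene (14.6% of all genes). The 75th percentile gave 1 and 1 (13.7% of all genes). Adding 0.1 FPKM, or nothing (an alternative chosen after seeing the data), gave 1 lower and 2 higher S-phase genes. With 0.1 FPKM added, 15.0% of all genes were lower and 26.0% higher. At 1.5-fold, 2 S-phase genes were lower and 5 higher, and 2 G2 and mitosis genes lower and 6 higher. The share of all genes was not computed at 1.5-fold. At 4-fold neither class had a higher gene (0 and 0), nor had G2 and mitosis without Ccna2, Mki67 and Top2a (0). At 4-fold, 13 S-phase and 11 G2 and mitosis genes were lower from day 4 to day 5 (2.65% of all genes), and 3 S-phase genes from day 5 to day 6 (1.05% of all genes). At 4-fold with nothing added, also chosen after seeing the data, the counts from day 4 to day 5 were 15 and 19. The larger count was then that of the G2 and mitosis genes. The share of all genes was not computed for these counts. The S-phase count from day 5 to day 6 was then 10 (3.51% of all genes), and no gene of either class was higher from day 0 to day 4 (0 and 0). On linear FPKM the share made by day 5 was 79.5% for G2 and mitosis genes, and the gap between the classes 5.93 points. Rescaling shifted all genes on the log2 scale by -0.24 or -0.16 from day 0 to day 4, by 0.15 or 0.12 from day 4 to day 5 and by 0.08 or 0.04 from day 5 to day 6. Of 138 single gene values, 3 crossed 2-fold with 0.1 FPKM added, 3 with nothing added, 4 with the median ratio and 2 with the 75th percentile, among them Mcm2 from day 4 to day 5 (-0.995) and Espl1 from day 5 to day 6 (-0.991) with the median ratio. No paired analysis was possible because each day has 1 RNA library, and for the same reason no library could be left out. Depth is not given, so the counting error of the day 6 values under 1 FPKM, which include 15 of the 24 G2 and mitosis genes, is unknown.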

Other observations

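Histone genes of the clusters used in S phase (70 entries of 69 symbols that start with Hist1h, Hist2h or Hist3h) had sums of 16562 FPKM in ES cells and of 26518, 5146 and 2100 FPKM in the libraries of days 4, 5 and 6. Of the 60 that could be compared from day 4 to day 5, 53 were lower by 2-fold or more (median log2 difference -2.42), where 14.7% of all genes were. From day 5 to day 6, 44 of 58 were lower (median -1.61), where 6.19% of all genes were. Hist1h4m and Hist1h2bn had the largest differences at the first step (-5.66 and -5.11), and Hist1h1b and Hist1h3g at the next (-3.72 and -3.64). Many of these genes are nearly identical copies whose reads may have been split, so values of single histone genes are uncertain. Hist3h2ba, chosen after its values were seen, kept its level, with 171, 120 and 137 FPKM in the libraries of days 4, 5 and 6.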
